A study of Mus musculus with 93 samples.

Results

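Cytosolic ribosomal protein genes encode the proteins that, with ribosomal RNA, build the large and the small subunit of the ribosome that translates messenger RNA in the cytoplasm. They were taken here as all genes whose probe sets carry a single symbol of the form Rpl or Rps with a number, optionally ending in a, l, x or l1, together with Rplp0, Rplp2 and Rpsa. The rule found 48 genes of 18193 genes with a single-symbol probe set on the Affymetrix mouse array, 22 of the large subunit, 20 of the small subunit and 6 paralogs (Rpl3l, Rpl7l1, Rpl22l1, Rpl39l, Rps4l and Rps27l). Where a gene had several such probe sets, the brightest on average across the 93 arrays was used. Of the 48 genes, 43 lay above 4.79, the median of the probe set means, and 34 of the 42 genes that are not paralogs averaged above 10 on the log2 scale. The other 8 (Rpl12, Rpl14, Rpl37, Rpl39, Rps6, Rps16, Rps25 and Rps27) were read by dimmer probe sets.

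The samples were peripheral blood leukocytes of FVB/NJ female mice, collected from the cheek after lysis of erythrocytes. Tumor-bearing mice carried MMTV/c-MYC, a transgene that places c-MYC or a point-mutant form of it under the mouse mammary tumor virus promoter, which acts mainly in the mammary gland. The control mice were tumor-free, of the same strain and of matching age, and both kinds of mice were kept under the same continuous breeding. Tumor arrays numbered 32 in the training cohort and 33 in the validation cohort, with 14 control arrays in each. The tumor arrays were further divided by the number in their label, with no stage or treatment attached to it in the labels. The late-numbered set held training arrays 6 to 32 and validation arrays 9 to 33 (n = 52), and the early-numbered set held training arrays 1 to 5 and validation arrays 1 to 8 (n = 13). The 28 controls formed 1 set. The labels name no animals, so p-values measure the spread between arrays.

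In blood, ribosomal protein messenger RNAs are among the most abundant transcripts of lymphocytes and are largely lost as neutrophils and erythroid cells mature. Most of these mRNAs begin with a tract of pyrimidines, the 5′ terminal oligopyrimidine (TOP) motif, through which the mTOR pathway controls their translation. MYC is a known activator of ribosomal protein genes, and free ribosomal proteins such as Rpl11 bind Mdm2 when ribosome assembly is disturbed.

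The arrays differed between the sets in ways outside the ribosome. The actin control difference, the 5′ minus the 3′ probe set, which falls as RNA becomes shorter, averaged -0.54 ± 0.282 in late-numbered, -1.42 ± 0.227 in early-numbered and -0.64 ± 0.103 in control arrays (log2, SD, n = 52, 13 and 28). The dap spike-in control averaged 8.56 in late-numbered, 2.70 in early-numbered and 2.22 in control arrays. The 18S control averaged 13.3, 13.7 and 13.1 in the same order. Sets and handling therefore cannot be told apart by the set comparison alone. Separation counts and array means below carry no covariates. For the fitted differences, the part of these controls was examined only by adding covariates, given beside some of the results. Those covariates overlap with the sets. Every late-numbered array lay above every control on the dap control (lowest 6.57, highest control 3.55). All 13 early-numbered arrays lay below every control on the actin difference. The control probe set components used below come from probe sets that include both. A change in calls under these covariates therefore cannot be assigned to handling or to the set. In bulk leukocyte RNA, fewer cells of a type and less RNA per cell cannot be told apart. The mean of the T cell list (14 of its genes measured) was 9.66, 9.21 and 10.1 in late-numbered, early-numbered and control arrays, and that of the B cell list (13 genes) was 8.44, 8.46 and 9.42. Neutrophil genes (13) averaged 10.6, 9.76 and 9.92. The mammary epithelial list (10 genes) averaged 4.03, 4.02 and 3.86. Validation array 19 of the late-numbered tumors stood apart, with a B cell mean of 6.18, a monocyte mean of 7.81 and a T cell mean of 11. Values of 10 or more were deposited in steps of 0.1, which limits how finely bright genes can be read.

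Tumor arrays as a whole had lower ribosomal protein levels than controls for many genes. In tumor minus control, 22 of 48 members were lower, 1 was higher and 25 were not called, where a call is a limma adjusted p under 0.05 over all probe sets. Over all genes, 42.3% were called, 19.6% lower and 22.7% higher in tumor arrays. Among the brightest genes (mean above 12), 30.5% were lower. The median difference was -0.15 over the 18 large subunit genes with a mean above 10 and -0.23 over the 16 such small subunit genes, against 0.07 over all genes. The member that rose was Rps27l, a paralog of Rps27 known as a p53 target (0.41 ± 0.077, SE, limma adjusted p = 6.73e-06). The leukocyte list covariates, here and below, were the mean levels of the T cell, B cell, neutrophil and erythroid lists. Monocyte and natural killer cell lists were not among them. With these covariates the split turned, with 8 members higher and 5 lower, and the medians were 0.026 and -0.030. With array weights 10 were higher and 21 lower, and the medians were -0.047 and -0.14. Here and below, shares over all genes are given for the main fit only. A shift of all genes under another setting therefore cannot be told from one of the members.

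The tumor arrays were not uniform, and the decrease lay mainly in the 13 early-numbered arrays. In early-numbered tumor minus control, 37 of 48 members were lower, 1 was higher and 10 were not called. Over all genes, 63.3% were called, 29% lower and 34.3% higher in this comparison, and 39.2% of genes with a mean above 12 were lower. The median difference was -0.62 over the 18 brighter large subunit genes and -0.44 over the 16 brighter small subunit genes, against 0.07 over all genes and -0.02 over the 393 genes with a mean above 12 that are not members. The plot of member differences shows how widely the members spread in this set. With the actin difference as a covariate, 36 members were lower and 12 were not called. With the control probe set components 24 were lower and 2 higher, and with the leukocyte lists 29 were lower and 5 higher, with a large subunit median of -0.39. Within the training cohort 36 were lower, and within the validation cohort 33.

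**Figure D1:**
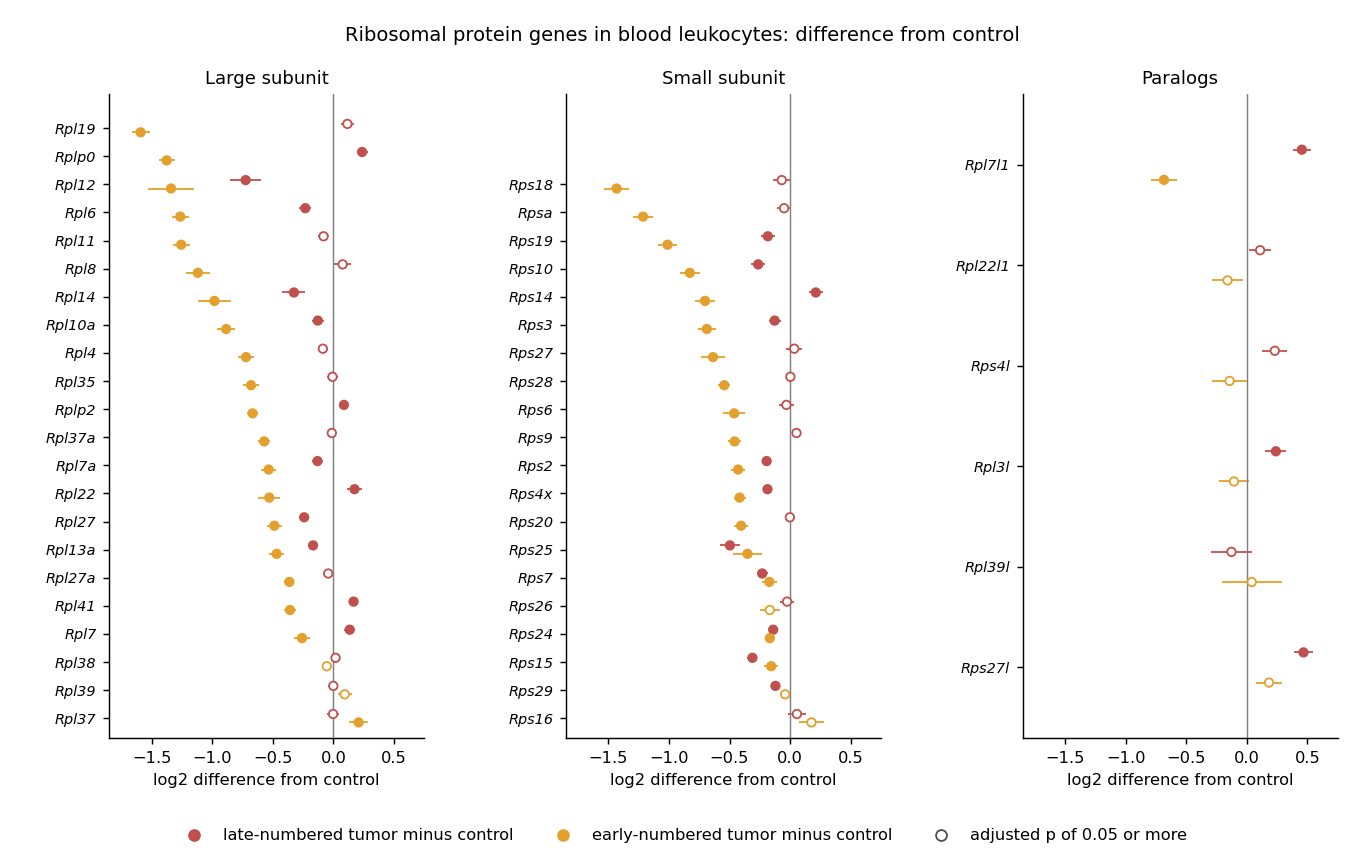
Log2 difference from control (x axis, with SE) for each ribosomal protein gene (y axis), in late-numbered (red) and early-numbered (yellow) tumor arrays; open points had an adjusted p of 0.05 or more. Most early-numbered points lie left of 0, down to -1.59 for Rpl19, whereas late-numbered points lie closer to 0.

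Rpl19, a large subunit protein whose tail reaches across to the small subunit, had the lowest early-numbered difference of all members. Its log2 level had a lowest value of 13, a median of 13.5 and a highest value of 14 in late-numbered arrays, 11.1, 11.8 and 12.2 in early-numbered arrays, and 12.7, 13.4 and 13.6 in controls. All 13 early-numbered arrays lay below every control and every late-numbered array, while late-numbered and control arrays overlapped. The early-numbered arrays fell by 1.59 ± 0.074 on the log2 scale (SE, limma adjusted p = 1.43e-34), a level 0.332 times that of controls.

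Rplp0, the core of the P stalk that recruits elongation factors to the ribosome, ran from 12.5 through a median of 13 to 13.5 in late-numbered arrays, from 11.1 through 11.4 to 11.6 in early-numbered arrays and from 12.2 through 12.8 to 13.1 in controls. Again no early-numbered array reached a control or a late-numbered array. The differences were 0.24 ± 0.046 in late-numbered and -1.38 ± 0.066 in early-numbered arrays against the same controls (limma adjusted p = 7.34e-06 and 1.64e-33). Rplp2, its partner in the stalk, ran from 13.8 through 14.1 to 14.4 in late-numbered arrays, from 12.9 through 13.3 to 13.6 in early-numbered arrays and from 13.7 through 14 to 14.2 in controls. It fell by 0.67 ± 0.042 in early-numbered arrays and was 0.09 ± 0.030 higher in late-numbered arrays, and its early-numbered arrays also lay below all others.

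Among the small subunit genes, Rps18, a protein of the subunit's head, had lowest, median and highest values of 12.0, 13.2 and 13.8 in late-numbered, 10.7, 12.0 and 12.4 in early-numbered and 12.5, 13.3 and 13.6 in control arrays. Every early-numbered array was below every control, but 2 late-numbered arrays were too. The difference was -1.43 ± 0.105 in early-numbered arrays. Rpsa, also known as the laminin receptor, ranged from 12.5 to 14 in late-numbered (median 13.4), from 11.7 to 12.9 in early-numbered (median 12.3) and from 12.8 to 13.8 in control arrays (median 13.4). Of the early-numbered arrays, 12 of 13 lay below the lowest control, and the difference was -1.21 ± 0.084.

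Complete separation of the early-numbered arrays from controls was seen for 6 members (Rpl6, Rpl11, Rpl19, Rplp0, Rplp2 and Rps18), 12.5% of the 48, against 1.37% of all genes with all 13 early-numbered arrays below the lowest control. Of these 6, 5 belong to the large subunit. Against the lowest late-numbered array, 5 members separated (Rpl8, Rpl11, Rpl19, Rplp0 and Rplp2), where 1.88% of all genes did. In early-numbered arrays the difference was -1.26 ± 0.069 for Rpl11, -1.26 ± 0.070 for Rpl6 and -1.12 ± 0.10 for Rpl8, a protein next to the catalytic center.

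**Figure D2:**
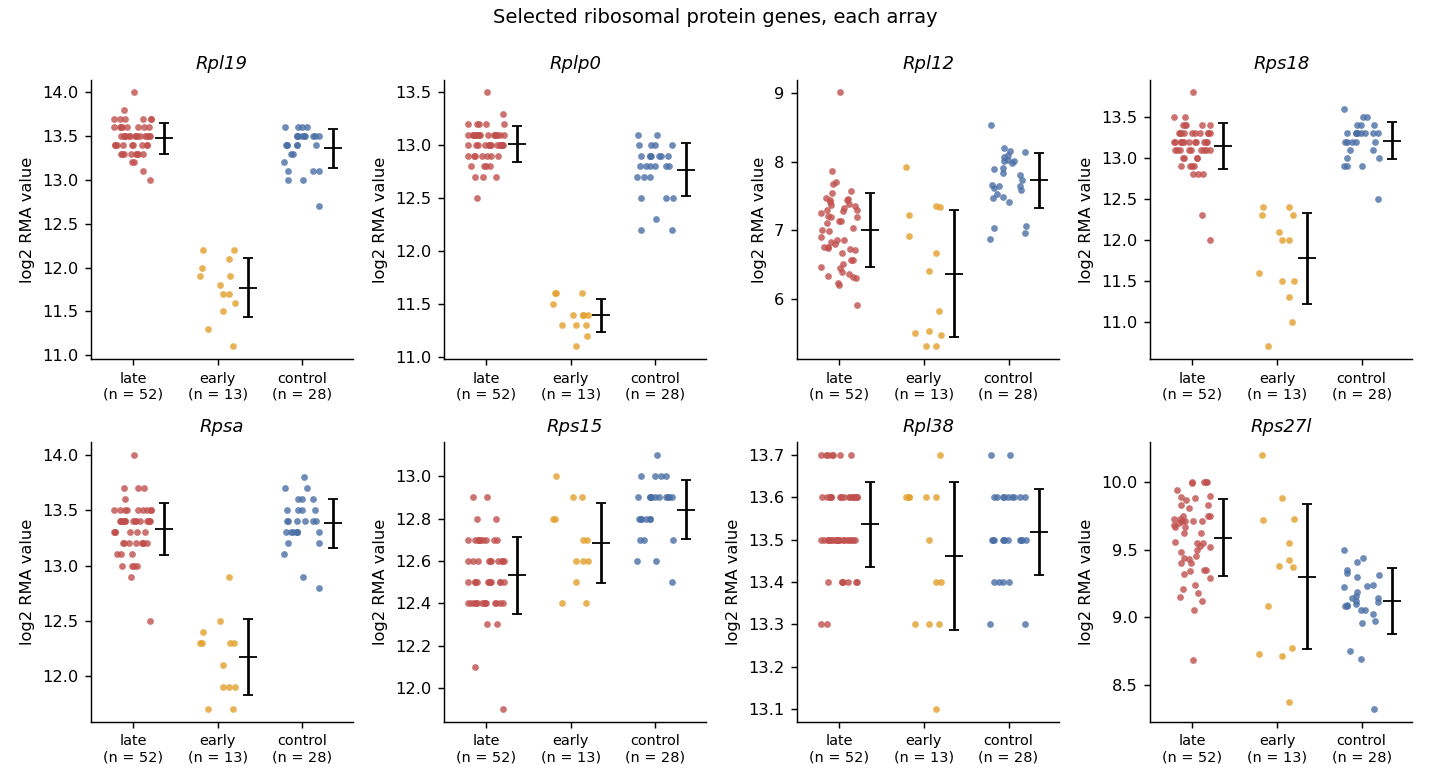
Log2 RMA value (y axis, a separate scale for each gene) of 8 members in every array of the late-numbered, early-numbered and control sets (x axis), with the mean and SD beside the points. Early-numbered arrays sit below the other sets for Rpl19 and Rplp0, and the 3 sets cover the same range for Rpl38.

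Not all members took part. Rpl38, known from mice for its part in translating Hox mRNAs, ran from 13.3 through a median of 13.5 to 13.7 in late-numbered arrays, from 13.1 through 13.5 to 13.7 in early-numbered arrays and from 13.3 through 13.5 to 13.7 in controls. The sets overlapped, with 1 early-numbered array below the lowest control, and its difference was -0.05 ± 0.041 in early-numbered and 0.02 ± 0.029 in late-numbered arrays, neither called. Rps29, a small zinc-binding protein of the small subunit's head, differed by -0.04 ± 0.034 in early-numbered arrays (not called) and fell by 0.12 ± 0.024 in late-numbered arrays (limma adjusted p = 8.38e-06). Its 2 other bright probe sets were at 0.09 and 0.10 in early-numbered arrays, not called either. Rps26 (-0.17 ± 0.083) was not called, and Rpl37, the member called higher (0.21 ± 0.076), was read by a probe set with a mean of only 2.62.

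Brightness went little with the size of the difference. Over the 34 brighter members that are not paralogs, the early-numbered difference had a Pearson r of 0.14 with the mean level, given as a description across genes on the same arrays. The kind of probe set went with it, also as a description. Probe sets marked x or s, which can bind several transcripts, had a median of -0.43 (13 members), and the others had -0.72 (21 members). Within the large subunit these medians were -0.47 and -0.88, and within the small subunit -0.42 and -0.62. Many ribosomal protein genes have near-identical processed pseudogenes, so members read by x or s probe sets are uncertain as to which copies they report. The 80 bright probe sets with several symbols that name such a gene, which the rule leaves out, had a median of -0.43, with 65 lower and 2 higher.

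The members' other probe sets gave a second reading of the same arrays. Of 29 other bright probe sets, 24 were lower in early-numbered arrays, 5 were not called and the median was -0.49. The 3 bright probe sets of Rps18 lay within 0.015 of one another, and the 5 of Rpl35 spread over 0.44. For Rps15 the probe sets disagreed in sign (-0.16 and 0.08). A dimmer Rps3 probe set (mean 8.02) gave 0.09, against -0.69 for the bright one.

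The promoter windows below are shown because ribosomal protein mRNAs share the TOP tract at their start, and because brighter members with such a tract had early-numbered differences as far apart as -1.43 (Rps18) and -0.05 (Rpl38). The RefSeq promoter table (GRCm38.p6) held 42 of the 48 members. Each line gives 30 bases before and 20 bases from the annotated start, 5′ to 3′ on the gene's strand, and the capitals mark the unbroken run of C and T letters over the start.
Rps18, chr17:33955646-33955695, minus strand: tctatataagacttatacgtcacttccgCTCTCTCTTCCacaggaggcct
Rplp2, chr7:141447621-141447670, plus strand: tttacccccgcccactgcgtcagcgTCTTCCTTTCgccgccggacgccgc
Rps10, chr17:27635225-27635274, minus strand: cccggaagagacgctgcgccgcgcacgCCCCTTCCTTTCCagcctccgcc
Rpl35, chr2:39005112-39005161, minus strand: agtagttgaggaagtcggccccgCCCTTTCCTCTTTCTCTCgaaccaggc
Rps6, chr4:86857348-86857397, minus strand: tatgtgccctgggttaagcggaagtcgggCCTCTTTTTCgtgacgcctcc
Rpl38, chr11:114668550-114668599, plus strand: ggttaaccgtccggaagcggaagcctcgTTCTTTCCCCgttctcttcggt

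Rps18 and Rpl38 both carried such a run, of 11 and 10 letters, with early-numbered differences of -1.43 and -0.05. A run of at least 5 letters over the annotated start was present in 13 of 50 member promoters (26%) and in 10.1% of all 32851 promoters. Annotated starts can be off by some bases, so a promoter without a run at that position may still give a TOP mRNA. Among brighter members, the 9 with a run had a median early-numbered difference of -0.53, and the 20 without had -0.56. Motifs were searched on both strands of the 300 bases, and GGGCGG and CGGAAG can share bases. The ETS core CGGAAG stood in 60.0% of member promoters and 16.9% of all, and the GC box GGGCGG in 52.0% and 35.7%. The E box CACGTG, the letters bound by MYC with its partner MAX, stood in 5 of 50 member promoters (10.0%, against 7.2% of all), which belong to Rpl13a, Rpl14, Rpl19 and Rps19, and TATAAA in 12.0% (against 13.6%).

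In late-numbered arrays the same genes stood close to the controls. In late-numbered tumor minus control, 17 of 48 members were lower, 9 were higher and 22 were not called, and over all genes 46.2% were called, 20.5% lower and 25.6% higher. Among genes with a mean above 12, 36.4% were lower. The median was -0.01 over the brighter large subunit genes and -0.12 over the brighter small subunit genes. By subunit, 5 large subunit genes were higher and 7 lower, and 1 small subunit gene was higher and 10 lower. With principal components of the control probe sets as covariates 5 members were called, 4 higher and 1 lower. With the leukocyte lists 19 were higher and 5 lower, and the medians were 0.10 and 0.05, with no share over all genes given for that setting. Within the training cohort 3 were higher and 20 lower, and within the validation cohort 9 and 6.

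Rpl12, a protein at the base of the stalk, had the lowest late-numbered difference. Its log2 values had a lowest, median and highest of 5.91, 7.03 and 9.01 in late-numbered, 5.31, 6.41 and 7.92 in early-numbered and 6.87, 7.77 and 8.54 in control arrays. The sets overlapped, with 23 of 52 late-numbered and 8 of 13 early-numbered arrays below the lowest control. The differences were -0.72 ± 0.131 and -1.34 ± 0.188 (limma adjusted p = 1.69e-06 and 2.53e-09), although the late-numbered value was 0.05 with the control probe set components. Rpl14 (-0.33 ± 0.095) was also dim and turned to 0.27 under those components.

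Rps25 and Rps15 were the small subunit genes with the lowest late-numbered differences, and neither was called lower in early-numbered than in late-numbered arrays. Rps25, which some viral RNAs need to recruit ribosomes, had a lowest, median and highest value of 6.93, 8.43 and 9.64 in late-numbered, 7.98, 8.48 and 9.39 in early-numbered and 8.48, 8.90 and 9.21 in control arrays. The late-numbered set reached below controls in 30 of 52 arrays, and the difference was -0.50 ± 0.084. Rps15, needed for nuclear export of the small subunit, ran from 11.9 through 12.5 to 12.9 in late-numbered arrays, from 12.4 through 12.7 to 13 in early-numbered arrays and from 12.5 through 12.9 to 13.1 in controls. Its differences were -0.31 ± 0.041 and -0.16 ± 0.059, both called, and in late-numbered minus early-numbered arrays it was -0.15 ± 0.054 (limma adjusted p = 0.00947).

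The higher members in late-numbered arrays were led by 2 paralogs. Rps27l ranged from 8.68 to 10.0 in late-numbered (median 9.65), from 8.37 to 10.2 in early-numbered (median 9.38) and from 8.32 to 9.50 in control arrays (median 9.13). More late-numbered arrays than not, 33 of 52, were above the highest control, and the difference was 0.47 ± 0.076 (limma adjusted p = 1.24e-07). Its difference in early-numbered arrays was 0.18 ± 0.109, not called. Its dimmer probe sets were at 0.25 (mean 8.55, not called) and 0.29 (mean 8.41, limma adjusted p = 0.0251) there. Rpl7l1, a paralog of Rpl7, had a lowest, median and highest value of 8.63, 9.34 and 10.1 in late-numbered, 6.66, 8.37 and 8.83 in early-numbered and 8.38, 8.89 and 9.26 in control arrays. Here too 33 late-numbered arrays lay above the highest control, and the differences were 0.45 ± 0.076 and -0.68 ± 0.109. Rps14, whose loss in the human 5q deletion impairs erythroid cells, was 0.21 ± 0.059 higher in late-numbered arrays and fell by 0.70 ± 0.085 in early-numbered arrays.

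The paralogs are given beside their partners, with no test between the genes of a pair. Rpl22, which mouse T cell development requires, was 0.17 ± 0.065 higher in late-numbered arrays and fell by 0.53 ± 0.092 in early-numbered arrays, and Rpl22l1 was at 0.11 ± 0.090 and -0.16 ± 0.129, neither called. Rpl7 was at 0.14 and -0.26, both called, beside 0.45 and -0.68 for Rpl7l1. Rps27 was at 0.03 (not called) in late-numbered arrays and fell by 0.64 in early-numbered arrays. Rps4x was at -0.19 and -0.42, both called, in late-numbered and early-numbered arrays. The heart and muscle paralog Rpl3l was 0.24 ± 0.087 higher in late-numbered arrays, from a dim probe set with a mean of 3.30. Rpl39l and Rps4l were likewise dim (means of 4.43 and 3.47) and were not called against controls.

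Of the genes altered in human Diamond-Blackfan anemia, a failure of red cell production from defects of ribosomal proteins, 11 of 18 listed were measured. In early-numbered arrays 9 of the 11 fell, with a median of -0.54, beside 37 of all 48 members and 29% of all genes. Rps19, the gene most often altered in that disease, was at -1.01 ± 0.082, Rpl11 at -1.26 ± 0.069, Rps10 at -0.83 ± 0.084 and Rpl35 at -0.68 ± 0.069. Rps28 (-0.54), Rps27 (-0.64), Rpl27 (-0.49), Rps7 (-0.17) and Rps24 (-0.17) were lower too, while Rps26 and Rps29 were not called. The other bright Rps24 probe sets were at -0.18 (called), -0.07 and -0.04 (neither called). Outside that list, Rps6, the substrate of S6 kinase, was at -0.46 ± 0.092 and Rps3, at the entry of the mRNA channel, at -0.69 ± 0.072, both called.

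Late-numbered and early-numbered tumor arrays were then compared with each other. In late-numbered minus early-numbered arrays, 37 of 48 members were higher, 3 were lower and 8 were not called, and over all genes 69.8% were called, 31.5% higher and 38.3% lower. Among genes with a mean above 12, 37.6% were higher. The median was 0.65 over the brighter large subunit genes and 0.46 over the brighter small subunit genes, against -0.08 over all genes. The differences were 1.71 ± 0.068 for Rpl19, 1.61 ± 0.061 for Rplp0, 1.36 ± 0.098 for Rps18 and 1.20 ± 0.092 for Rpl8. The 3 lower members were Rpl37, Rps15 and Rps29. With the control probe set components as covariates 15 members were called, all 15 higher, and the medians were 0.51 and 0.37. With the actin difference 31 were higher and 1 was lower, and the small subunit median was 0.28.

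By their calls against the shared 28 controls, 16 members were lower in both sets, 14 were lower in the early-numbered set only by call, and 7 were lower in the early-numbered and higher in the late-numbered set (Rpl7, Rpl7l1, Rpl22, Rpl41, Rplp0, Rplp2 and Rps14). Of all genes, 8.71% were lower in both, 10.0% were lower in the early-numbered set alone by call, and 10.2% were lower in the early-numbered and higher in the late-numbered set. Rps29 was lower in the late-numbered set by call, Rpl3l and Rps27l were higher there, Rpl37 was higher in the early-numbered set, and 7 members were not called in either. Since both comparisons use the same controls, the counts are not independent of each other.

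The means of the subunits moved by different amounts between the sets, given here as a description. The mean of the 18 brighter large subunit genes was 13.23 ± 0.135 in late-numbered, 12.50 ± 0.224 in early-numbered and 13.24 ± 0.160 in control arrays (SD). That of the 16 brighter small subunit genes was 12.93 ± 0.146, 12.48 ± 0.249 and 13.03 ± 0.144 in the same order. The large subunit mean minus the small subunit mean of the same array averaged 0.31 ± 0.034 in late-numbered, 0.03 ± 0.061 in early-numbered and 0.21 ± 0.037 in control arrays. Only its change between arrays can be read, since the probe sets of the subunits differ in brightness. Of the late-numbered arrays, 46 of 52 were above the highest control, and 12 of 13 early-numbered arrays were below the lowest control. The ordering held in both cohorts, at 0.30 and 0.31 in late-numbered, 0.07 and 0.00 in early-numbered and 0.22 and 0.20 in control arrays of the training and validation cohorts. This difference of array means was not fitted with covariates. In late-numbered minus control, the fitted large and small subunit medians were 0.02 and -0.03 with the control probe set components. They were -0.02 and -0.12 with the actin difference, and -0.01 and -0.12 in the main fit. In early-numbered minus control they were -0.48 and -0.33 with the components, and -0.57 and -0.45 with the actin difference. The main fit gave -0.62 and -0.44 there.

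**Figure D3:**
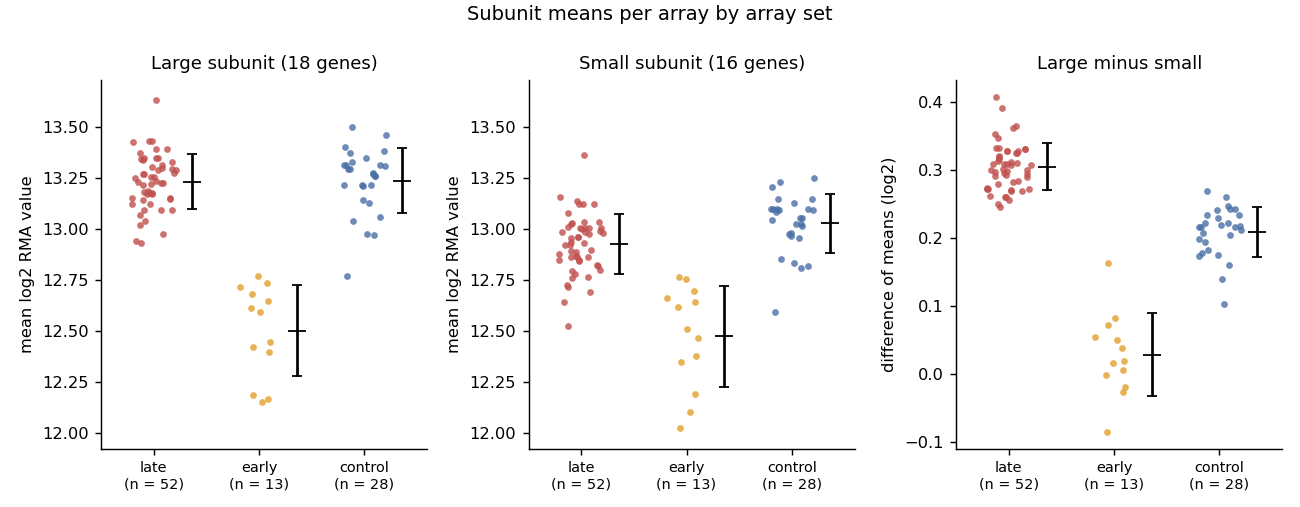
Mean log2 RMA value per array of 18 large and 16 small subunit genes, and their difference (y axes), by set (x axis), each point an array, with the mean and SD beside the points. The difference averaged 0.31 in late-numbered, 0.03 in early-numbered and 0.21 in control arrays.

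The 34 brighter members together averaged 13.09 ± 0.139 in late-numbered, 12.49 ± 0.234 in early-numbered and 13.14 ± 0.151 in control arrays. Early-numbered arrays ran from 12.11 to 12.76, with 9 of 13 below the lowest control (12.69). The cohorts were alike, at 12.50 ± 0.261 in the 5 training and 12.48 ± 0.234 in the 8 validation arrays. In a model with cohort, no member was called by the limma interaction test of tumor with cohort (0 of 48 with an adjusted p under 0.05). At an unadjusted p under 0.05 there was 1, Rpl39l. Over all probe sets 0 were called as well, and 549 had an unadjusted p under 0.05. The members thus did not differ from the array at large in this test. It pooled late-numbered and early-numbered arrays. Validation controls were below training controls for 34 of 34 brighter members, by a median of 0.11, and no member passed the adjusted test (18 did at an unadjusted p under 0.05). The share over all genes was not computed for the control cohorts, so a shift of many genes cannot be told from one of the members.

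The actin difference lay below the lowest control (-0.90) in all 13 early-numbered arrays and in 2 late-numbered arrays. Those 2, training arrays 22 and 27, had actin differences of -2.3 and -1.1, ribosomal protein means of 12.99 and 12.84 and large minus small differences of 0.27 and 0.28, inside the late-numbered range. Without them 25 members were called in late-numbered minus control (9 higher, 16 lower), 38 in early-numbered minus control and 40 in late-numbered minus early-numbered arrays. Among controls, training array 10 had the lowest actin difference (-0.90) and the lowest large minus small difference (0.10). Validation controls 2, 8, 9 and 13, at -0.8, had large minus small differences of 0.18, 0.16, 0.18 and 0.18, where controls averaged 0.21. Their ribosomal protein means were 12.69, 12.90, 12.95 and 13.06, where controls averaged 13.14. A link with the actin difference within a set was not tested. Validation array 19 had the highest late-numbered mean (13.51), and without it 27 members were called in late-numbered minus control and 39 in late-numbered minus early-numbered arrays.

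**Figure D4:**
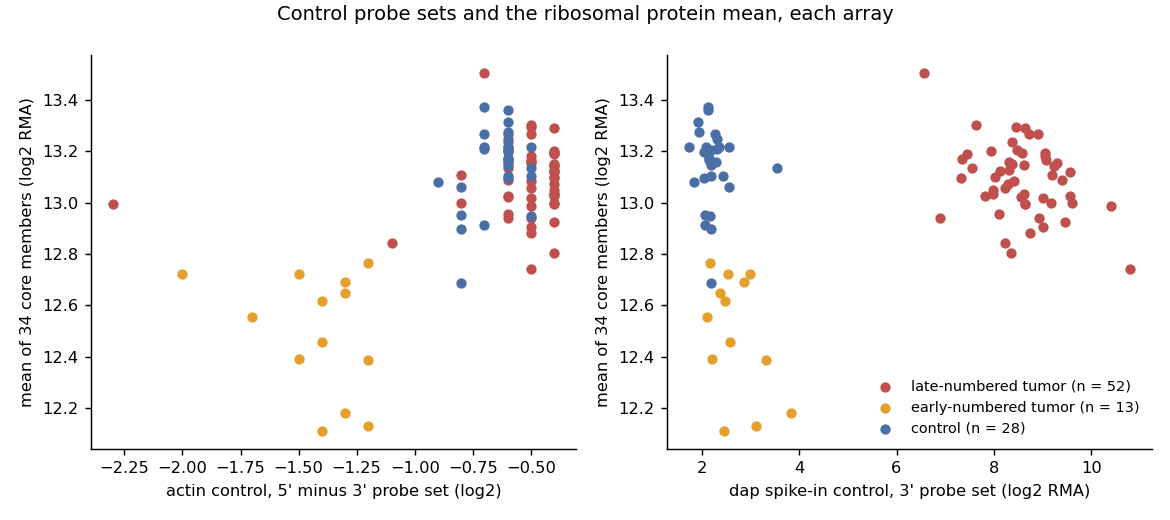
Mean log2 RMA value of the 34 brighter members (y axes) against the actin control difference and the dap spike-in control (x axes, log2), each point an array colored by set. Early-numbered arrays lie at actin differences of -2.0 to -1.2 and below nearly all others, and late-numbered arrays lie apart on the dap axis.

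Most members varied together within each set. Over the 561 pairs of the 34 brighter members, the median Pearson correlation was 0.63 in late-numbered, 0.76 in early-numbered and 0.81 in control arrays, as a description of genes that share arrays. The pair closest together was Rps18 with Rps3 in late-numbered (0.93), Rps20 with Rps7 in early-numbered (0.98) and Rpl11 with Rpl22 in control arrays (0.97). Rpl41 went least with the mean of the others, at r of -0.02 in late-numbered, 0.34 in early-numbered and 0.44 in control arrays, and Rps29 was at 0.24 in late-numbered arrays. The median SD of a member was 0.17 in late-numbered, 0.29 in early-numbered and 0.16 in control arrays, and 31 of 34 had a larger SD in early-numbered than in control arrays. The largest early-numbered SD was that of Rps18 (0.56) and the smallest that of Rps29 (0.095).

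Other genes of translation were set beside the members. Mitochondrial ribosomal protein genes, which build a separate ribosome inside mitochondria, were lower in early-numbered arrays for 63 of 76 and higher for 3, with a median of -0.79, where 29% of all genes were lower and 34.3% higher. In late-numbered arrays 36 were higher and 10 lower, with a median of 0.18, where 25.6% of all genes were higher and 20.5% lower. Initiation factors were lower for 23 of 35 and higher for 6 in early-numbered arrays, with a median of -0.50. Elongation factors and other TOP genes were lower for 13 of 16, with a median of -0.42. Of the cytosolic ribosomal genes outside the rule, Fau was at -0.26 ± 0.051 and Rps3a1 at -0.67 ± 0.051 in early-numbered arrays. Not every TOP gene followed the members. Hnrnpa1 was at -1.13 ± 0.060 in late-numbered and -0.45 ± 0.087 in early-numbered arrays, and Eef1b2 at -0.39 ± 0.034 and -0.19 ± 0.049, all called.

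**Figure D5:**
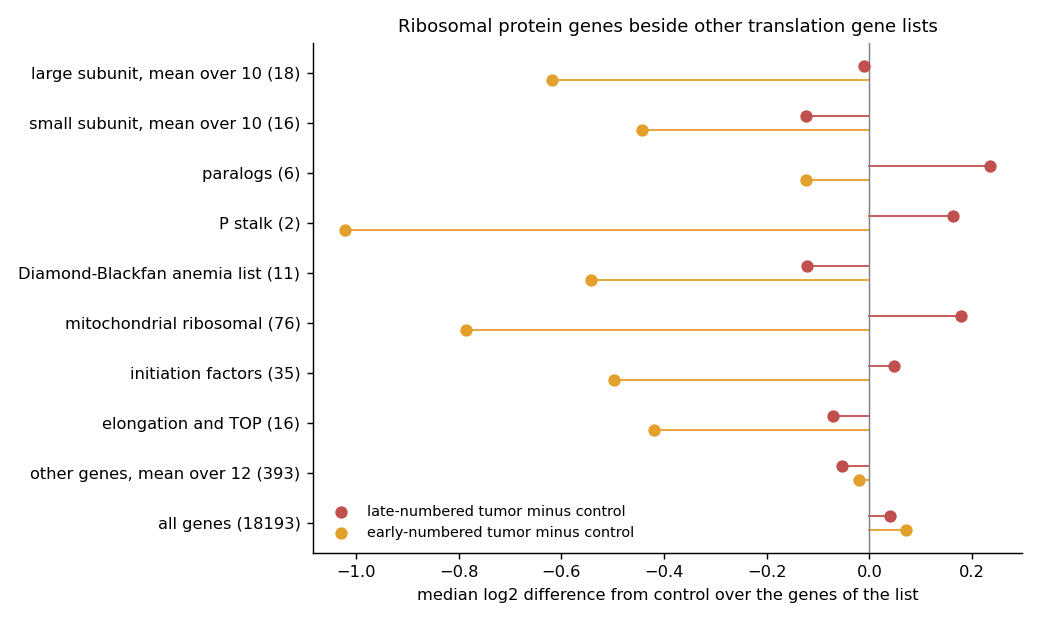
Median log2 difference from control (x axis) over the genes of each list (y axis, number of genes in brackets) in late-numbered and early-numbered tumor arrays. Early-numbered medians are -0.62 and -0.44 for the brighter large and small subunit genes and -0.79 for mitochondrial ribosomal genes, against 0.07 for all genes.

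Leukocyte lists moved with the sets as well. T cell genes were lower for 11 of 14 in early-numbered arrays and for 9 of 14 in late-numbered arrays, with medians of -1.05 and -0.48. B cell genes were lower for 10 and 12 of 13, with medians of -1.04 and -1.09. Neutrophil genes were higher for 10 of 13 in late-numbered arrays (median 0.73), and in early-numbered arrays 1 was higher and 3 were lower (median -0.12). Natural killer cell genes were lower for 6 of 9 in early-numbered arrays (median -0.53) and for 3 in late-numbered arrays. Monocyte genes were lower for 3 of 9 in early-numbered arrays and higher for 6 in late-numbered arrays. Erythroid genes were higher for 5 of 10 in early-numbered arrays (median 0.49) and for 3 in late-numbered arrays (median 0.25). Over all genes 29% were lower and 34.3% higher in early-numbered arrays, and 20.5% were lower and 25.6% higher in late-numbered arrays. Beside these values, the brighter ribosomal protein medians were -0.62 and -0.44 for the large and small subunit in early-numbered and -0.01 and -0.12 in late-numbered arrays. With the T cell, B cell, neutrophil and erythroid lists as covariates, Rpsa, Rps3, Rps19, Rps26 and Rpl35 turned positive in late-numbered arrays (0.18, 0.05, 0.05, 0.21 and 0.14). Rps7, Rps15, Rps24, Rps26 and Rpl22l1 did so in early-numbered arrays (0.18, 0.15, 0.02, 0.22 and 0.54).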

How the data were processed

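The deposited values are log2 expression values that the authors made by RMA from Affymetrix mouse genome arrays of NuGEN-amplified leukocyte RNA. Its version is not given in the sources used here. Arrays were also standardized on control probe sets in the study, and whether the deposited values include that step is unknown. Some RNA was extracted directly and some after storing, manually or on a robot, and the sources used here do not tie these to arrays. Values of 10 or more have steps of 0.1.

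Of 45101 probe sets, the 45037 outside the array's control probes were tested with limma 3.58.1 in R 4.3.3 (lmFit, eBayes with an intensity trend, Benjamini-Hochberg adjustment over all 45037, threshold 0.05). Number sets were fitted with cohort as a term, and all tumor arrays likewise. The test was checked on simulated differences first. Probe sets were named from the platform annotation: 34945 had 1 symbol, 932 several and 9160 none. Named members were those with the 4 highest and 4 lowest differences in each set comparison among members above the median of probe sets, the P stalk, Diamond-Blackfan anemia and paralog lists, and Rpsa, Rps3, Rps6 and Rps14; others are named as counts required, after their values were seen. Members and lists were chosen with earlier results of these data known. The number of arrays limits the precision. Alternatives covered centring, probe set choice, weights, cohorts and covariates, and 2 more that leave arrays out were chosen after seeing the data.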

Additional observations from a re-analysis of the deposited data

Results flagged for a closer look

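For 7 of 48 members the difference from control was called higher in the late-numbered and lower in the early-numbered tumor arrays. Of all genes, 10.2% were called so, and the count alone does not set the members apart. The 7 members were picked by these calls against the same 28 controls. Late-numbered minus early-numbered therefore had to differ and is given as a value with no p. It was 1.61 for Rplp0, 1.14 for Rpl7l1, 0.91 for Rps14, 0.75 for Rplp2, 0.70 for Rpl22, 0.52 for Rpl41 and 0.39 for Rpl7. Dimmer probe sets of some of these genes read otherwise, given as late-numbered and early-numbered minus control. Rpl41 was at -0.60 and 0.08 (mean 8.90) and at -0.45 and -0.02 (mean 9.59). Rpl22 was at -0.50 and -0.64 (mean 7.49) and Rpl7l1 at 0.28 and 0.19 (mean 7.13). The next brightest probe sets of Rpl41, Rpl22, Rps14, Rpl7 and Rpl7l1 kept both signs, such as 0.16 and -0.28 for Rpl41.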

How the results depend on the processing

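Most values of named members kept their direction and side of the threshold: 433 of 487 in early-numbered minus control, 393 of 487 in late-numbered minus control, 354 of 417 in late-numbered minus early-numbered and 375 of 452 in tumor minus control. The tally pools settings that leave the fitted difference unchanged with others that can move it. It also includes the replicate block, whose pairing the labels do not give. In late-numbered minus control, 35 members kept their side without an intensity trend. With the control probe set components 18 did, and with the leukocyte lists 17. With validation arrays alone, 9 members were called in tumor minus control (1 higher, 8 lower) and 15 in late-numbered minus control (9 higher, 6 lower). With the control probe set components, 5 were called in late-numbered minus control and 15 in late-numbered minus early-numbered. With the leukocyte lists, 13 were called in tumor minus control (8 higher, 5 lower), the large and small subunit medians there were 0.026 and -0.030, and the early-numbered large subunit median was -0.39. With array weights, 10 were higher and 21 lower in tumor minus control. The late-numbered medians ran from -0.08 to 0.10 (large) and from -0.19 to 0.05 (small) over all settings. With the mean of probe sets lacking x or s endings, the small subunit median of late-numbered minus early-numbered was 0.27, and Rps3 turned to -0.34.

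Some values kept their direction but lost the call, in 29, 38, 41 and 27 cases of the same 4 comparisons. Others gained a call, in 6, 18, 8 and 21 cases. The remaining values changed sign. In 12, 28, 7 and 26 of these cases the member was called neither before nor after, such as Rpl19 and Rpl8 in tumor minus control, at 0.033 and 0.19 with the leukocyte lists. The rest of the sign changes were called in at least 1 of the fits. In tumor minus control, Rplp0 was 0.14 with array weights, and Rps26 and Rpsa were 0.21 and 0.010 with the leukocyte lists. In late-numbered minus control, Rpl12, Rpl14, Rps26, Rpl27 and Rps3 were 0.051, 0.27, 0.41, 0.0070 and 0.055 with the control probe set components, and Rps19, Rps26, Rpl35, Rpsa and Rps3 were 0.046, 0.21, 0.14, 0.18 and 0.049 with the leukocyte lists. In early-numbered minus control, Rps25 was 0.029 with the actin difference and 0.32 with the components, and Rps15, Rps7, Rps24, Rps26 and Rpl22l1 were 0.15, 0.18, 0.021, 0.22 and 0.54 with the leukocyte lists. In late-numbered minus early-numbered, Rps27l, Rps10, Rpl3l and Rps4l were -0.063, -0.0070, -0.23 and -0.12 with the components, and Rps24 and Rpl22l1 were -0.10 and -0.036 with the leukocyte lists. The cause of these changes was not tested.

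The array numbers divide the tumor arrays into sets that differ on the dap control and the actin difference, as given above. No label pairs a tumor array with the control array of the same number. The replicate block joined arrays of the same cohort and number, so it could not test for shared animals. With it, 23, 26 and 38 members were called in tumor, late-numbered and early-numbered minus control, as without it. The consensus correlation was -0.016. These unchanged counts say nothing about replication. No block was fitted for late-numbered minus early-numbered.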
